A study of Mus musculus with 63 samples.

Results

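Glo1, Dnah8 and Btbd9 are 3 neighbouring genes of mouse chromosome 17, and they were 3 of the 19220 genes in the deposited count table. They were chosen by symbol, with the high level of Glo1 in AJ hearts already known from these data, so the AJ values of the 3 genes are given here as a description and without a test. The 63 libraries were made from heart RNA of 8 mouse strains: the classical strains labelled 129, AJ, B6, NOD and NZO, and the wild-derived strains labelled Cast, PWK and WSB, each with 8 libraries except Cast with 7. All strains shared a diet rich in fat (labelled 45 percent) and sugar, and no group on another diet was analysed. The labels give neither sex nor age. They number the libraries of a strain without stating that each is a separate animal, so p-values measure the spread between these libraries, which may be partly technical.

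Glo1 encodes glyoxalase I, the enzyme that converts the adduct of methylglyoxal, a reactive by-product of glycolysis, with glutathione. Its product is released as D-lactate by glyoxalase II, the product of Hagh. Dnah8 encodes a heavy chain of axonemal dynein, the motor of cilia and flagella, and is known mainly from testis and sperm. Btbd9 encodes a BTB-domain protein, a class that includes adaptors of the cullin-3 ubiquitin ligase, and has been linked with restless legs syndrome and iron handling. As background, a duplication that takes in Glo1 and parts of its neighbours has been described in A/J and some other inbred strains. Gene copy number was not measured here.

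In the deposited annotation (GRCm38) Btbd9 lay on the minus strand at chr17:30215524-30576287, Glo1 on the minus strand at chr17:30592866-30612659 and Dnah8 on the plus strand at chr17:30624354-30875264. The genes span 360.8 kb, 19.8 kb and 250.9 kb. Gaps of 16.6 kb and 11.7 kb separate Glo1 from Btbd9 and from Dnah8. In GENCODE M21, Glo1 runs from 30584936 to 30626871 and so overlaps the start of Dnah8 on the other strand. Whether strand was used in counting is not given in the sources used here, so reads of that overlap cannot be told apart. Glo1 also has a near-identical copy, Gm13443, with 99.5% identity over 555 bases. AC165962.3, which overlaps Glo1 on the other strand, matched it at 100% over 418 bases. AC174471.1, which overlaps Btbd9 on the same strand, matched it at 100% over 1256 bases. None of these is in the count table, and how their reads were assigned is not given. The levels of Glo1 and Btbd9 are uncertain to that extent.

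The sequences next to the starts of Glo1 and Dnah8 are shown because these adjacent genes, whose starts face away from each other, had different strain orders in the values that follow. RefSeq (GRCm38.p6) had a start for 2 of the 3 genes, and the 250 bases before each are printed from 5′ to 3′ on the gene's own strand. Capitals mark matches to 4 short motifs searched on both strands: the TATA box (TATAAA), the CCAAT box (CCAAT), the GC box (GGGCGG) and the core of the antioxidant response element (TGACNNNGC).
Glo1, chr17:30612660-30612909, minus strand: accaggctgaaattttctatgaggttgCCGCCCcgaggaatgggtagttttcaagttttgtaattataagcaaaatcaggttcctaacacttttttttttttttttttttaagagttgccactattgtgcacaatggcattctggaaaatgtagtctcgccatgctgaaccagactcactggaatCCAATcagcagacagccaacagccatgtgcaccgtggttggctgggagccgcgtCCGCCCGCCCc
Dnah8, chr17:30626686-30626935, plus strand: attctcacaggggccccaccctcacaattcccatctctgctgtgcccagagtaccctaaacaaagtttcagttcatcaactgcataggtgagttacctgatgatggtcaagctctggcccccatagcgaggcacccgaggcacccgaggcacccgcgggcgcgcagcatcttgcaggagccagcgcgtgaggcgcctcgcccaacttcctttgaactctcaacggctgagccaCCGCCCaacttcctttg
The Glo1 window held 1 CCAAT box, 65 to 61 bases before the start, and 3 GC boxes on the opposite strand, at 223 to 218, 11 to 6 and 7 to 2 bases before the start. The GC boxes at 11 to 6 and 7 to 2 overlap. The Dnah8 window held 1 GC box on the opposite strand, 17 to 12 bases before the start. Neither window held a TATA box or the antioxidant response core as spelled. Of all 32851 RefSeq windows of this length, 33.8% held a CCAAT box, 32.7% a GC box, 12.4% a TATA box and 10.2% the antioxidant response core. The G and C content was 46.4% before Glo1 and 59.2% before Dnah8, against a median of 52.4%. These letters are from the reference genome, which is of the B6 strain, and show no difference between strains.

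Levels are CPM, the counts of a gene relative to the size of its library, scaled between libraries by the trimmed mean of M-values (TMM). Total counts per library ran from 21.8 M to 42.9 M with a median of 30.4 M. All 8 cardiomyocyte markers were in the table, with strain means of their summed level between 55173 and 70649 CPM. Each of the 63 libraries correlated best with a library of its own strain, and no libraries were identical. The WSB_1 library stood apart, with a median correlation of 0.941 with its own strain against 0.971 for the next lowest library. Its cardiomyocyte sum was 39306 CPM and its endothelial sum 2059 CPM, the lowest and the highest of WSB.

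Glo1 was highest in AJ. Its level there was 266 ± 6.10 CPM (SD, n = 8), with a lowest library of 259, a median of 266 and a highest of 275. The next strain was 129 at 157 ± 7.05 CPM (n = 8), whose libraries ran from 145 through a median of 160 to 164. Every AJ library therefore lay above every library of the other 7 strains, a pattern that 0.323% of the 16425 tested genes had; since the high AJ level chose the gene, nothing is read from it. Cast followed at 141 ± 18.5 CPM (n = 7, lowest 112, median 141, highest 162). PWK was at 109 ± 3.63 CPM (n = 8, lowest 103, median 108, highest 113). The libraries of 129 and Cast overlapped, as did those of Cast and PWK. In bulk tissue, more RNA per cell and more cells that make it cannot be told apart.

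The other 4 strains had the lowest Glo1 levels and their libraries overlapped. NZO had 77.5 ± 3.53 CPM (lowest 70.9, median 77.7, highest 81.9) and B6 had 76.9 ± 3.15 CPM (lowest 70.6, median 77.9, highest 80.9). WSB had 76.9 ± 13 CPM, with a median of 79.1, a highest library of 89.8 and a lowest, WSB_1, of 46.7. NOD had 74.2 ± 4.17 CPM (lowest 68.8, median 73.1, highest 82.0; each n = 8). No library of these 4 strains reached the lowest PWK library. How many genes separate these strains in this way was not counted. Without WSB_1 the WSB mean was 81.2 ± 4.88 CPM (n = 7), which would place WSB above NZO. The AJ mean was 1.69 times that of 129, 3.45 times that of B6 and 3.58 times that of NOD. On the log2 scale, AJ was 1.45 above the mean of the other 7 strains. The within-strain SD of Glo1 was above that of 15.2% of tested genes, and the between-strain share of the variance of its log2 CPM was 0.957, against a median of 0.443 over all tested genes.

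**Figure D1:**
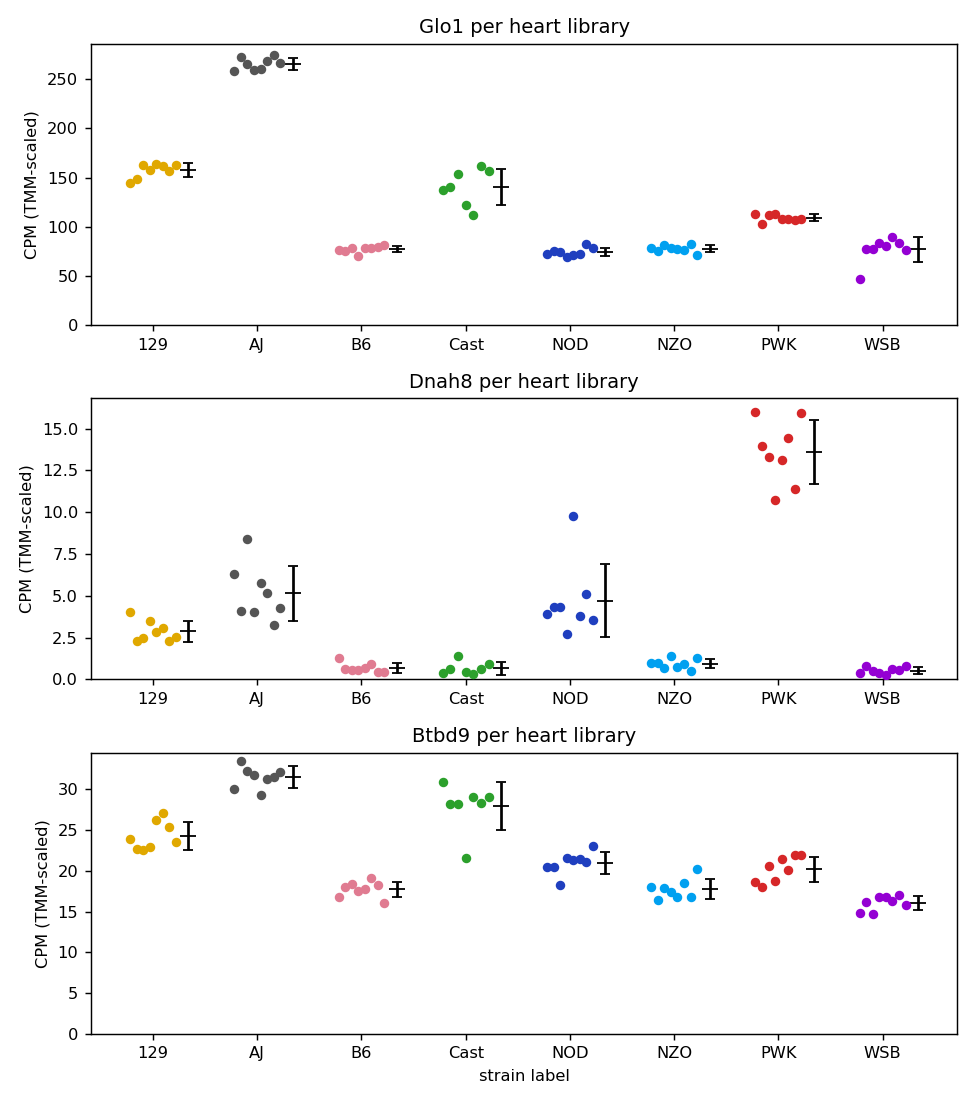
Level of Glo1, Dnah8 and Btbd9 in CPM (y axis, linear from 0) in each heart library (points) by strain (x axis), with the strain mean and SD beside the points in black. Glo1 libraries of AJ sit between 259 and 275 CPM, above all others, while Dnah8 is highest in PWK and its NOD_5 library stands at 9.80 CPM.

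Dnah8 was low in most hearts and had another strain order. PWK was highest at 13.6 ± 1.90 CPM (n = 8, lowest 10.7, median 13.6, highest 16.0), which rested on 357 to 632 counts per library. No library of another strain reached the lowest PWK library. The share of genes with this pattern in PWK was not counted, so nothing is read from it. AJ followed at 5.15 ± 1.65 CPM (lowest 3.24, median 4.72, highest 8.40), NOD at 4.70 ± 2.17 CPM (lowest 2.74, median 4.12, highest 9.80) and 129 at 2.88 ± 0.616 CPM (lowest 2.31, median 2.67, highest 4.01). The libraries of AJ, NOD and 129 overlapped from strain to strain. The highest NOD library, NOD_5, also held 59.9 CPM of summed T cell markers, against at most 4.01 CPM in the other 7 NOD libraries; its part in the Dnah8 level was not tested. Without NOD_5 the NOD mean was 3.97 ± 0.747 CPM (n = 7).

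The remaining 4 strains had about 1 CPM of Dnah8 or less. NZO had 0.941 ± 0.286 CPM, B6 0.687 ± 0.30 CPM, Cast 0.671 ± 0.385 CPM (n = 7) and WSB 0.53 ± 0.193 CPM, with as few as 7 counts in a library. None of their libraries reached the lowest 129 library, and they overlapped with each other. The share of genes with such a gap was not counted. The PWK mean was 25.9 times the WSB mean. On the log2 scale, AJ was 1.59 above the mean of the other 7 strains, although it was below PWK. The within-strain SD of log2 CPM was 0.46 for Dnah8, 0.13 for Glo1 and 0.10 for Btbd9, against a median of 0.24 over tested genes. Of the 5 testis germ cell markers, Prm1, Prm2 and Tnp1 were not in the table and the summed level of Ddx4 and Dazl was at most 0.584 CPM as a strain mean. Of the 6 multiciliated cell markers, Foxj1, Dnah5 and Dnai1 were not in the table under these symbols. Dnai1 was there under its older symbol Dnaic1 and is not in the sum that follows. Dnaic1 stood at 0.270 CPM in PWK, 1.20 CPM in AJ and 0.730 CPM as the mean of the 6 strains other than PWK and AJ. The other 3, Tppp3, Rsph1 and Ccdc39, summed to 29.8 ± 2.54 CPM in PWK and to strain means of 18.3 to 28.8 CPM elsewhere, mostly from Tppp3. Their part in the Dnah8 levels was not tested.

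Btbd9 differed least. AJ was highest at 31.5 ± 1.32 CPM (n = 8, lowest 29.3, median 31.7, highest 33.5) and Cast next at 27.9 ± 2.94 CPM (n = 7, lowest 21.6, median 28.3, highest 30.9). The Cast and AJ libraries overlapped, since Cast_1 at 30.9 CPM lay above the lowest AJ library. In 129 the level was 24.3 ± 1.71 CPM (lowest 22.6, median 23.7, highest 27.1), in NOD 20.9 ± 1.35 CPM and in PWK 20.2 ± 1.57 CPM. NZO had 17.8 ± 1.22 CPM, B6 17.7 ± 0.953 CPM and WSB, the lowest, 16.1 ± 0.888 CPM (lowest 14.7, median 16.3). Every strain overlapped with its neighbour in this order. The AJ mean was 1.96 times the WSB mean, and AJ was 0.63 above the mean of the other 7 strains on the log2 scale.

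The AJ libraries differed in their content of immune cell and adipocyte RNA, which was set beside the levels of the 3 genes. AJ_2, AJ_7 and AJ_8 held 4.13 to 6.81 CPM of summed B cell markers, against 70.8 to 197 CPM in the other 5 AJ libraries. The same 3 libraries held 3.95 to 6.18 CPM of summed adipocyte markers, against 21.7 to 45.0 CPM in the other 5. Their Glo1 levels of 266 to 275 CPM overlapped the 259 to 268 CPM of the other 5. Their Btbd9 levels were 31.6 to 33.5 CPM, against 29.3 to 32.3 CPM. Their Dnah8 levels were 3.24 to 4.24 CPM and the other 5 were at 4.03 to 8.40 CPM, with a small overlap. Most AJ libraries with more B cell and adipocyte RNA thus also had more Dnah8. AJ_4, at 4.03 CPM, was below AJ_2 (4.07 CPM) and AJ_8 (4.24 CPM). This split does not tell B cell from adipocyte RNA, and their part in the Dnah8 levels of AJ was not tested. Over the 63 libraries, after subtracting strain means, Dnah8 had a correlation of 0.31 with the summed B cell markers, 0.32 with the fibroblast sum and 0.36 with the T cell sum, which is a description since libraries share depth and dissection. Without NOD_5 these were 0.28, 0.38 and 0.12. With the adipocyte sum the correlation of Dnah8 was 0.22 over the 63 libraries and 0.20 without NOD_5. The skeletal muscle list was highest in AJ at 3326 ± 330 CPM, next to NZO at 3238 ± 871 CPM and strain means of 1256 to 1936 CPM elsewhere. Nearly all of it was Acta1 and Ckm, which the heart also expresses; in AJ Myh1 and Myh2 were at 0.0569 and 0.0441 CPM, and Myh4 was not in the table. NZO, with a like sum, was among the strains lowest in Glo1, and the part of these cells in the AJ level was not tested. Against B6 alone in place of all 7 strains, the AJ log2 fold changes were 1.79 for Glo1, 2.90 for Dnah8 and 0.83 for Btbd9.

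The differences among the 7 strains other than AJ leave out the AJ level, and they were tested. The 3 genes were chosen with earlier results of these data known, so these tests may not be independent of that choice. All 3 genes differed among the 7 strains (edgeR quasi-likelihood F-test, adjusted over all tested genes), as did 88.2% of tested genes, so passing is the usual case in these data. The strain means of Dnah8 spanned 4.69 on the log2 scale (adjusted p = 6.66e-32), those of Glo1 1.08 (2.45e-28) and those of Btbd9 0.80 (2.72e-21). The span of Dnah8 was larger than that of 96.0% of tested genes, while that of Glo1 was larger than that of 63.7% and that of Btbd9 than that of 51.6%, so without AJ the spans of Glo1 and Btbd9 were ordinary in size. With AJ included, the between-strain share of variance was above that of 99.1% of tested genes for Glo1, 97.7% for Dnah8 and 96.9% for Btbd9; AJ is part of that measure, so it is a description.

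Each of the 7 strains was then set against the mean of the other 6. In 129, all 3 genes were higher, where 33.2% of tested genes passed in either direction. Glo1 was 0.81 ± 0.0473 higher (log2 fold change ± SE, adjusted p = 8.55e-23), Dnah8 0.87 ± 0.165 higher (1.95e-05) and Btbd9 0.30 ± 0.0402 higher (9.87e-09). The Dnah8 mean of 129 was nevertheless below the 3.52 CPM mean of the other 6, which PWK raises; the fold change averages strains on the log scale. In B6, all 3 genes were lower, by 0.39 for Glo1, 1.53 for Dnah8 and 0.23 for Btbd9 on the log2 scale, where 33.4% of genes passed. NZO and WSB had the same directions for all 3 genes as B6. In NZO the log2 fold changes were -0.38 for Glo1, -1.02 for Dnah8 and -0.23 for Btbd9 (42.9% of genes passed). In WSB they were -0.39, -1.99 and -0.40 (44.6% of genes passed).

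In Cast and NOD, Glo1 and Dnah8 had opposite directions, and in PWK both were higher. In Cast, Glo1 was 0.62 ± 0.0506 higher (adjusted p = 8.13e-17) and Btbd9 0.53 ± 0.0414 higher (1.12e-17), while Dnah8 was lower by 1.52 on the log2 scale (2.59e-08). Of tested genes, 59.3% passed in Cast. In NOD, Glo1 had a log2 fold change of -0.45 ± 0.0524 (8.08e-11) and Dnah8 was 1.70 ± 0.149 higher (5.32e-15), where 35.7% of genes passed. In PWK, Dnah8 was 3.49 ± 0.132 higher (9.80e-33) and Glo1 0.19 ± 0.0496 higher (0.000825), where 53.2% of genes passed. Btbd9 did not pass in NOD (0.05 ± 0.0406, adjusted p = 0.391) or in PWK (-0.01 ± 0.0409, adjusted p = 0.79). Every call named here kept its direction and its side of the threshold in each of the 12 alternatives that recomputed it.

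**Figure D2:**
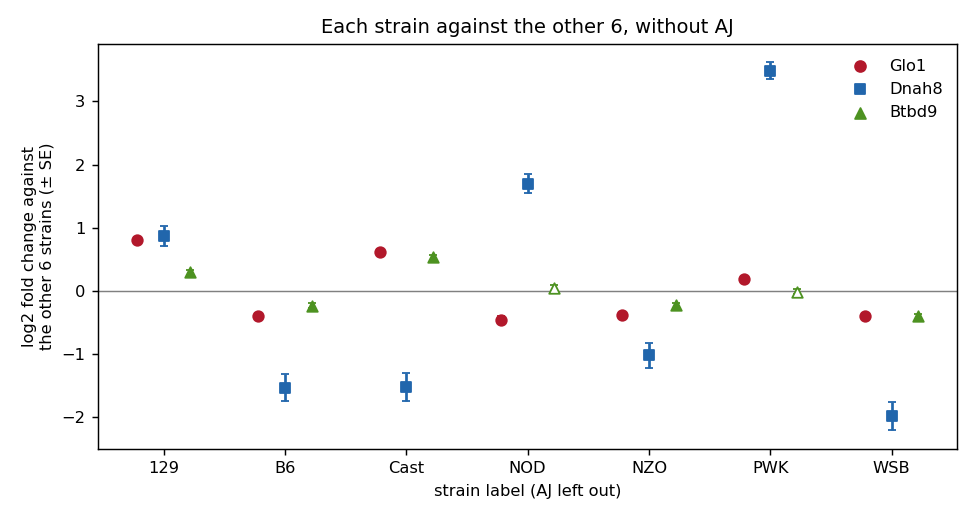
Log2 fold change (y axis, ± SE) of Glo1, Dnah8 and Btbd9 in each of the 7 strains other than AJ (x axis) against the mean of the other 6, with filled symbols for an adjusted p below 0.05 and open symbols otherwise. Glo1 and Dnah8 have opposite signs in Cast (0.62 and -1.52) and NOD (-0.45 and 1.70), and Btbd9 is open in NOD and PWK.

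The ratio of Glo1 to Btbd9 counts within a library does not depend on the scaling between libraries. The ratio was 8.44 ± 0.280 in AJ (n = 8, 8.14 to 8.88), above every other library. Since the AJ level of Glo1, which chose the gene, enters the ratio, nothing is read from its height in AJ. It was 6.50 ± 0.450 in 129, 5.43 ± 0.473 in PWK and 5.06 ± 0.693 in Cast (n = 7). It was 4.78 ± 0.705 in WSB, 4.39 ± 0.412 in NZO, 4.35 ± 0.319 in B6 and 3.56 ± 0.298 in NOD. The ratios of Cast (3.85 to 5.72) and PWK (4.89 to 6.08) overlapped, and their difference was not tested. Because the ratio is of counts and the genes differ in length, its size says nothing of which gene is more abundant. Over the 8 strain means of log2 CPM the correlation of Glo1 with Btbd9 was 0.91, while that of Dnah8 was 0.38 with Glo1 and 0.35 with Btbd9. Over the 63 libraries after subtracting strain means, these correlations were 0.23, 0.15 and 0.06.

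**Figure D3:**
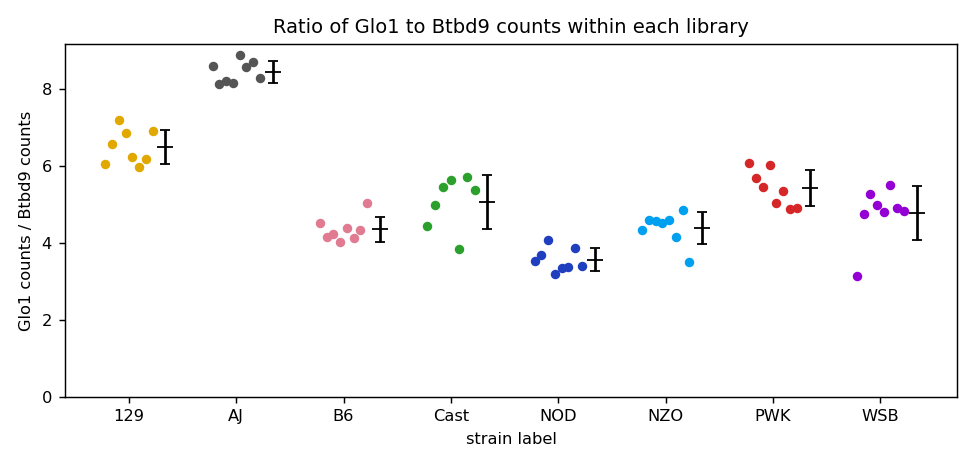
Glo1 counts divided by Btbd9 counts (y axis, linear from 0) in each library (points) by strain (x axis), with the strain mean and SD in black. AJ libraries lie between 8.14 and 8.88, and NOD has the lowest mean at 3.56.

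The genes around Glo1 were taken by position. Of 23 genes whose nearest edge lay within 1 Mb of Glo1, 21 passed the filter on low counts, and 18 of these were not Glo1, Dnah8 or Btbd9. Of the 18, 4 were higher in AJ than the mean of the other 7 strains, 2 were lower and 12 did not pass (edgeR quasi-likelihood test). Over all genes 20.6% were higher and 17.9% lower, 38.4% in all, so the neighbours passed about as often as other genes. Their median log2 fold change was 0.04, against 0.00057 over all genes. From 1 to 3 Mb away, 14 of 65 tested genes were higher and 12 lower, with a median of -0.01. Within 1 Mb, AJ log2 fold changes other than those of the 3 genes ran from -0.56 to 0.77, all below those of Glo1 and Dnah8. Btbd9, at 0.63, was below Mdga1 (0.74) and Gm9874 (0.77). Since the high AJ level of Glo1 was known when the 3 genes were chosen, nothing is read from this order.

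Toward the Btbd9 side, the gene next to Btbd9 is Zfand3, which encodes a zinc finger protein; it was 0.15 ± 0.0389 higher in AJ (log2, adjusted p = 0.00107), at 68.2 ± 2.07 CPM, although Cast was higher still at 78.8 ± 6.19 CPM. Mdga1, which encodes a cell surface protein of neurons, was 0.74 ± 0.0897 higher (4.12e-10), at 16.4 ± 2.08 CPM in AJ, 17.1 ± 1.64 CPM in 129 and 18.6 ± 6.63 CPM in Cast. These are the strains that were also high in Glo1. The gene model Gm9874, which lies within Btbd9 on the other strand, was 0.77 ± 0.279 higher (0.0226) at only 0.295 CPM; it falls outside the rule for named genes and its reads cannot be told apart from those of Btbd9 if strand was not used. Tbc1d22b, Rnf8, Cmtr1 and Ccdc167, farther out on this side, had log2 fold changes of -0.05, -0.13, 0.10 and -0.11 and did not pass. Without WSB_1, Cmtr1 passed at 0.08 (adjusted p = 0.0272).

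Toward the Dnah8 side, the next listed gene is Glp1r, which encodes the receptor of glucagon-like peptide 1. It had 3 counts in total in Cast, 16 in AJ and 46 in NZO, the most of any strain, and was not tested. Abcg1, a cholesterol exporter, was lower in AJ by 0.56 on the log2 scale (SE 0.118, adjusted p = 8.66e-05). Its mean was 4.15 ± 0.969 CPM in AJ against 15.6 ± 6.85 CPM in Cast, and against the mean of 129, B6, NOD and NZO the difference was -0.21 and did not pass (adjusted p = 0.206). Wdr4, a subunit of a transfer RNA methyltransferase, was 0.25 ± 0.0516 higher (7.62e-05) at 8.0 ± 0.542 CPM, and Pknox1, a homeobox factor, was lower by 0.15 (SE 0.0521, adjusted p = 0.0142). Pknox1 did not pass without AJ_2, AJ_7 and AJ_8 (adjusted p = 0.133), against B6 alone (0.288) or against 129, B6, NOD and NZO (0.0851). Ubash3a, Rsph1, Slc37a1, Pde9a and Ndufv3 had log2 fold changes of 0.23, 0.10, -0.02, 0.14 and -0.05 and did not pass. Against B6 alone, Rsph1 was 1.66 higher in AJ (adjusted p = 1.63e-06), at 0.77 CPM against 0.242 CPM. Cbs, cystathionine beta-synthase, had -0.38 (adjusted p = 0.21) against the other 7 strains but was 0.99 higher against 129, B6, NOD and NZO (adjusted p = 0.0012), since Cast at 7.80 ± 4.72 CPM and PWK at 3.53 ± 0.727 CPM set the mean of the 7. Outside this window Pacsin1, 2.88 Mb away and named after its value was seen, had a larger AJ log2 fold change (3.64 ± 0.154, adjusted p = 8.19e-30) than Glo1. Its mean was 4.57 CPM in AJ but also 4.43 CPM in NOD, and 0.0630 to 0.532 CPM in the other strains. The fold change averages these low strains on the log scale.

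**Figure D4:**
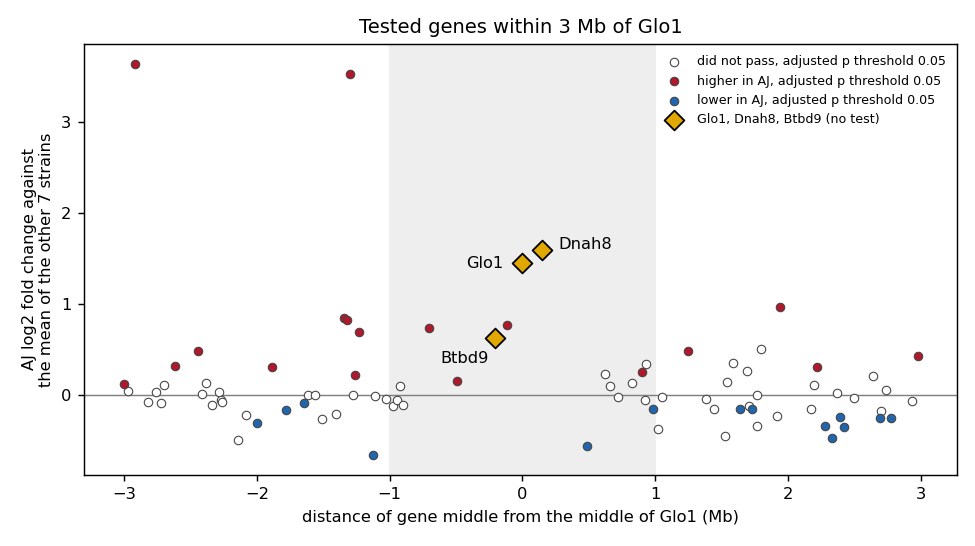
AJ log2 fold change, with the mean of the other 7 strains as the reference (y axis), of tested genes by distance of the gene's middle from that of Glo1 in Mb (x axis), with gene middles within 1 Mb on grey and Glo1, Dnah8 and Btbd9 as diamonds. Glo1 (1.45) and Dnah8 (1.59) stand above the other genes on grey, which run from -0.56 to 0.77, and the highest point is Pacsin1 at 3.64. Btbd9 (0.63) does not stand above them. The high AJ level of Glo1 was known when the genes were chosen, so nothing is read from this order.

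The enzymes around glyoxalase I were described from lists taken by function. Of 17 tested genes of methylglyoxal formation and removal, without Glo1, 9 were higher in AJ, 0 were lower and 8 did not pass, with a median log2 fold change of 0.15; over all tested genes 20.6% were higher and 17.9% lower. The highest were Gapdh, the glycolytic enzyme glyceraldehyde-3-phosphate dehydrogenase (0.64, adjusted p = 3.83e-09), Haghl, a relative of glyoxalase II (0.29, 0.015), and Fn3k, a kinase that removes sugar adducts from proteins (0.26, 0.00209). Gapdh has many processed pseudogenes, so its counts are uncertain. Hagh itself, the enzyme after Glo1, did not pass (0.08 ± 0.0529, adjusted p = 0.247) and stood at 23.7 ± 2.04 CPM in AJ. The counts depended on the reference: against B6 alone, 5 of the list were higher and 3 lower. The share of all genes that passed against B6 alone is not given here, so nothing is read from these counts.

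In 129, which had the second highest Glo1 level, 7 of the 17 genes were lower than in the other 6 strains without AJ and 1 was higher, 47.1% in all against 33.2% of all tested genes, with a median of -0.16. Hagh was lower by 0.48 (SE 0.0568, adjusted p = 2.08e-10), at 16.8 ± 1.31 CPM. In Cast, 5 were higher and 7 lower, or 70.6% against 59.3% of all genes. In NOD, with the lowest Glo1 mean, 6 were higher and 1 lower, and these 41.2% were near the 35.7% of all genes that passed there. In B6, also among the strains low in Glo1, 7 were higher and 4 lower, or 64.7% against 33.4% of all genes. The shares were 47.1% in NZO, 47.1% in PWK and 52.9% in WSB, against 42.9%, 53.2% and 44.6% of all genes.

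Glo1 uses glutathione, and of 19 tested genes of glutathione supply and use 8 were higher in AJ (42.1%, against 20.6% of all genes) and 2 lower (10.5%, against 17.9%), with a median of 0.11. Glrx, glutaredoxin, was 0.60 higher (adjusted p = 1.54e-10), Gpx1 0.42 (6.03e-05) and Gpx4 0.33 (3.79e-05), both glutathione peroxidases. Oplah, which recycles 5-oxoproline, was lower by 0.34 (4.80e-06), and Nfe2l2, the transcription factor NRF2, was lower by 0.23 (2.12e-06). Aldo-keto reductases can reduce methylglyoxal, and of 9 tested 4 were higher (44.4%, against 20.6%) and 1 lower (11.1%, against 17.9%), with a median of 0.10: Akr1e1 had 0.46 (0.000203), Akr7a5 0.26 (5.79e-06), Akr1b3, aldose reductase, 0.25 (0.00114) and Akr1c19 -0.84 (0.000853). Against B6 alone, 1 aldo-keto reductase was higher and 2 lower, with no share of all genes beside them. Each other strain was also set against the remaining 6. NZO had 6 higher and 0 lower (66.7%, against 42.9% of all genes) and NOD 5 and 2 (77.8%, against 35.7%). B6 had 4 and 1 (55.6%, against 33.4%) and the 129 strain 4 and 2 (66.7%, against 33.2%). Cast had 1 and 2 (33.3%, against 59.3%), PWK 2 and 3 (55.6%, against 53.2%) and WSB 1 and 5 (66.7%, against 44.6%).

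Dnah8 was set beside a list of 36 other dynein gene symbols, of which 25 passed the filter. Dnai1 and Dnai2 of that list are later symbols of Dnaic1 and Dnaic2, which are also on it, so the list covers fewer than 36 genes. In AJ 8 were higher (32.0%, against 20.6% of all genes), 3 were lower (12.0%, against 17.9%) and 14 did not pass, with a median of -0.01. Dnaaf3, a dynein assembly factor, was 1.05 higher (adjusted p = 8.10e-14), but at 3.77 CPM against 3.43 CPM in the other strains, since its level in PWK was only 0.180 CPM and the fold change averages strains on the log scale. Dnaic1 (1.04, 3.80e-05) and Dnah12 (0.94, 0.00949) were also higher, and Dnah7b (-1.09, 0.000285), Dnal1 (-0.33, 1.96e-05) and Dync1li2 (-0.13, 0.0237) were lower. In PWK, where Dnah8 was highest, 5 of the 25 were higher than in the other 6 strains and 9 were lower, with a median of -0.19; these 56.0% were near the 53.2% of all genes that passed in PWK. Among axonemal heavy chains, Dnah6 was 0.87 higher there (0.0178), and Dnah2 (-1.18, 0.000136), Dnah10 (-1.18, 0.0289), Dnah12 (-1.34, 0.00413) and Dnah17 (-0.62, 0.00213) were lower. These heavy chains were low in PWK: Dnah6 at 1.32 CPM, Dnah2 at 0.283, Dnah10 at 0.0957, Dnah12 at 0.102 and Dnah17 at 0.519 CPM. Dnah3 (-0.37), Dnah7b (0.37) and Dnah14 (-0.91) did not pass. No other gene of the list had a PWK log2 fold change above 0.87, against 3.49 for Dnah8.

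Btbd9 was set beside 31 genes of BTB proteins and the cullin-3 ligase, all tested. In AJ 6 were higher (19.4%, against 20.6% of all genes), 3 lower (9.68%, against 17.9%) and 22 did not pass, with a median of 0.01. Rhobtb2 (0.39, adjusted p = 1.28e-08), Rhobtb3 (0.36, 0.000213) and Keap1, the cullin-3 adaptor that binds NRF2 (0.22, 2.87e-07), were the highest, and Btbd3 (-0.36, 1.07e-07), Ube2m (-0.14, 0.0055) and Spop (-0.13, 0.0112) the lowest. Cul3 did not pass (-0.04, adjusted p = 0.72). Of 25 tested genes of iron handling, 5 were higher and 5 lower (20% each, near the 20.6% and 17.9% of all genes), with a median of 0.00073, so the list as a whole did not stand out; the genes that moved most are given. Ncoa4, the ferritinophagy receptor, was 0.84 higher (7.43e-18), Tfrc, the transferrin receptor, 0.76 (0.0237) and Steap3, a ferrireductase, 0.48 (9.77e-08). Cp, ceruloplasmin, was lower by 1.11 (6.14e-18), Hamp, hepcidin, by 0.67 (0.0274) and Hfe by 0.50 (3.35e-09). Against B6 alone, 2 genes of the BTB list were higher and 6 lower, with no share of all genes beside them, so nothing is read from these counts.

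**Figure D5:**
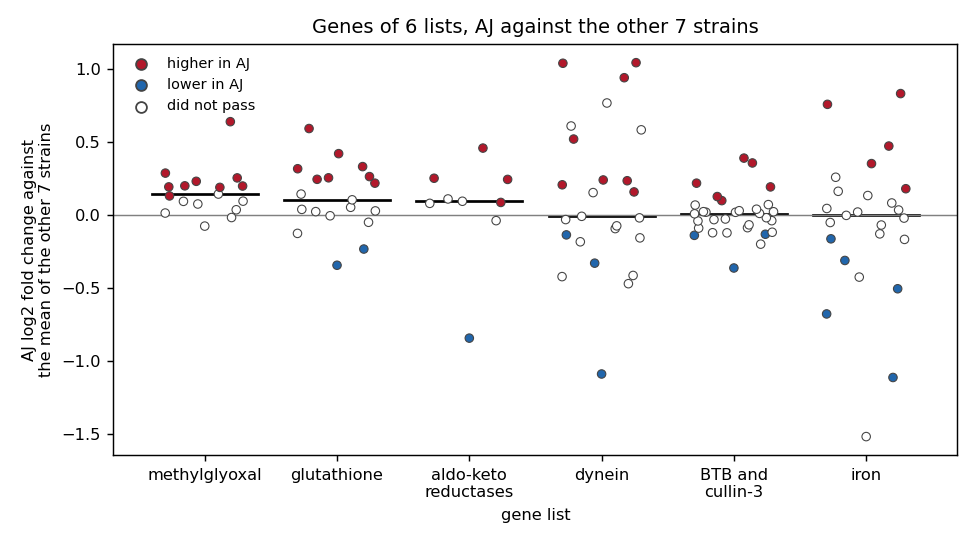
AJ log2 fold change, with the mean of the other 7 strains as the reference (y axis), of the tested genes (points) of 6 lists (x axis), coloured by whether they passed the test, with the list median as a black line. The methylglyoxal list has 9 genes higher and 0 lower around a median of 0.15, and the BTB list has 22 of 31 genes that did not pass.

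Genes whose pattern was most like that of a member were sought among 11194 genes. Over the 8 strain means, Zmat2 (correlation 0.93), Coa4, Prkar2a, Ttc13 and Nelfcd (0.89) were nearest to Glo1. Tm2d3 (0.96), Tfb1m, Mapre2, Spg21 and Scd2 (0.94) were nearest to Dnah8. Smim19 (0.96), Slc6a8, Ehd4, Smad4 and Kank1 (0.91) were nearest to Btbd9. Correlations of this size over 8 points are a description of the highest of many genes. Of these 15 genes only Tfb1m is on chromosome 17.

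Likeness within strains was measured separately. Over the 63 libraries after subtracting strain means, Dlat, a subunit of pyruvate dehydrogenase, had a correlation of 0.91 with Glo1, and Rtn4ip1, Trim72, Dlst and Pgm2 were next, all at 0.91. Dlst encodes a subunit of oxoglutarate dehydrogenase and Trim72 a membrane repair protein of muscle. Without WSB_1, the library low in Glo1 and in cardiomyocyte markers, these 5 correlations were 0.78 to 0.82, and the highest were Abcd3 (0.83), Rtn4ip1 (0.82), Sod2, Dlat and Uqcc1 (0.80). The correlation of Glo1 with the summed cardiomyocyte markers was 0.72 over 63 libraries and 0.30 without WSB_1. Over 63 libraries it was 0.44 with the skeletal muscle sum, 0.19 with the fibroblast sum and -0.39 with the endothelial sum. Without WSB_1 these were 0.53, 0.42 and 0.42, so the endothelial sign turned on 1 library. With the multiciliated cell sum the correlation of Glo1 was -0.655, and -0.35 without WSB_1. For Dnah8 the nearest genes were Il16 (0.58), Plxdc1, Thy1, Ets1 and Ppp1r16b (0.51). Without NOD_5, the library with most T cell RNA, these 5 were at 0.42 to 0.54 and the highest were Serpinb9 (0.59), Plxdc1 (0.54), Kdr, Igsf3 and Il16 (0.52). For Btbd9 they were Gga1 (0.61), Ctc1, Ctsf, Sirt5 and Prkag1 (0.53). Libraries share depth, dissection and cell content, and these correlations are a description.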

How the data were processed

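RNA was measured in 63 heart libraries; per the labels' protocols, the libraries were made from polyA RNA. The authors deposited a table of expected counts per gene (estimated counts, not normalised; 18.4% of values are not whole) and a table of variance-stabilised log2 values, made with DESeq2 on GRCm38 per the submitters' processing notes. For the aligner, the counter and the use of strand, the answer is not given in the sources used here. Any loss of reads of strains other than B6 to sequence variants was not tested.

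Counts were rounded and fitted in R 4.3.3 with edgeR 4.0.16 (TMM, the filterByExpr filter at a minimum count of 10 left 16425 of 19220 genes, robust quasi-likelihood fit, 1 coefficient for each strain, 55 residual degrees of freedom). Adjusted p-values are Benjamini-Hochberg over all tested genes, with a threshold of 0.05. Log2 fold changes average the reference strains on the log scale. These 3 contrasts were used: AJ against the other 7 strains, any difference among those 7, and each of the 7 against the other 6. Correlations used log2 CPM with a prior count of 2, after leaving out, for likeness, genes below a mean of 1. The scripts were tested on simulated data. Alternatives used DESeq2 1.42.0, limma 3.58.1, other scalings, filters, libraries, reference strains and windows. Near-identical transcripts were sought with minimap2 2.31-r1302 in GENCODE M21. Precision follows the counts, from 7 counts per library for Dnah8 in WSB to 11747 for Glo1 in AJ.

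The 3 genes, the lists and the tests were chosen with earlier results of these data known. The rule named the 3 genes, Glp1r, every tested gene within 1 Mb with a symbol that is not a gene model or clone name, up to 3 genes per direction of each list with the largest change among those past the AJ test, and the 5 nearest genes per likeness search. Hagh, Cul3, Gm9874, Pacsin1 the dynein genes given for PWK and the likeness genes without a library were named in addition, after their values were seen.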

Additional observations from a re-analysis of the deposited data

Results flagged for a closer look

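Within-strain values of the 3 genes were checked for a library far from the rest of its strain, in 24 groups of 7 or 8 libraries, where chance gives about 1 in 20 groups. Glo1 in WSB_1 was 46.7 CPM, and the next lowest WSB library was at 76.0 CPM. WSB_1 also had the lowest cardiomyocyte and highest endothelial marker sums of WSB, and their part in this value was not tested. Dnah8 in NOD_5 was 9.80 CPM, and the next NOD library was at 5.13 CPM; NOD_5 held 59.9 CPM of summed T cell markers, whose part was not tested. Btbd9 in Cast_5 was 21.6 CPM, and the next lowest Cast library was at 28.2 CPM.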

How the results depend on the processing

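Among the 7 strains other than AJ, the range of Glo1, Dnah8 and Btbd9 and each of their tests against the other 6 strains kept direction and side of the threshold in all 12 alternatives. The range of Glo1 was 1.02 to 1.08 and its highest adjusted p was 4.13e-26; that of Dnah8 was 2.05 to 4.70 and that of Btbd9 0.64 to 0.83. The AJ log2 fold change of Glo1 ran from 1.40 to 1.79. On the deposited variance-stabilised values, which compress low counts, it was 0.55 for Dnah8 and 0.51 for Btbd9. With B6 alone as the reference it was 1.79 for Glo1, 2.90 for Dnah8 and 0.83 for Btbd9, and the list counts changed: methylglyoxal 5 higher and 3 lower, aldo-keto reductases 1 and 2, BTB 2 and 6, iron 3 lower. With 129, B6, NOD and NZO as the reference, methylglyoxal had 2 lower, aldo-keto reductases 2 higher and dynein 3 higher. The share of all genes is not given beside the list counts of either reference, so nothing is read from them. Near Glo1, 0 genes were lower with either of these references, 1 without AJ_2, AJ_7 and AJ_8, and Cbs turned to 1.01 higher against B6 alone and 0.99 higher against the 4 strains. Within 0.5 Mb, 2 genes were higher and 1 lower; within 2 Mb, 12 and 8. Iron handling had 3 lower without AJ_2, AJ_7 and AJ_8 and 3 without AJ_3, and with genes below a mean log2 CPM of 1 left out, 0 aldo-keto reductases were lower. Where another reference or fewer genes or libraries entered, the change follows from that; otherwise the cause was not tested. With the replicate number as a block (the replicate block), 6274 genes passed for AJ against 6315, 6140 of them shared. The numbers name libraries of different strains, and the labels do not say that they pair them. Of 63 libraries, 14 correlated best with a library of their own number. After subtracting strain means, the mean correlation between strains was 0.04 for the same number and -0.0053 for different numbers. These values do not settle whether libraries are paired. Leaving out NOD_5 was chosen after seeing the data, as were likeness of Glo1 without WSB_1 and of Dnah8 without NOD_5. Summing Glo1 with Gm13443 was not run, since that copy is not in the table. Dnah8 in WSB, B6, Cast and NZO rests on few counts.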
